A study of Solanum tuberosum and Solanum acaule with 12 samples.

Results

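Balanced 4-copy loci of the potato cultivar Atlantic are loci whose transcripts were spread fairly evenly over all 4 numbered copies of a chromosome. A locus is a set of assembled transcripts with one assembly number, and the chromosome names in the placement table end in a number that is read here as the copy, after the ploidy in the series title. Transcripts placed on exactly one of copies 1 to 4 were summed per locus and copy. The rule took loci with transcripts on all 4 copies and a 4-copy sum of at least 5 in all 6 libraries, in which the mean share of every copy over the 3 control libraries lay from 15% to 40% of the 4-copy sum. It found 1941 loci, out of 2828 loci that met the minimum sum, 4058 loci with transcripts on all 4 copies and 60683 Atlantic loci in all. An even split would be 25% per copy.

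The samples were shoots of S. tuberosum cv. Atlantic, with 3 control libraries from plants in long days and 3 freezing libraries from explants in a chamber cooled from 22 °C to -4 °C by 2 °C per hour. No transgene or other treatment is named for either group, and both were shoot tissue of a single cultivar. As described, the groups also differ in the use of explants and in the chamber. These and the cold cannot be told apart, so "after freezing" below names the group and not a cause. The libraries were stranded mRNA libraries. The labels call the replicates biological and say no more of their origin, so the tests measure the spread between these libraries. Libraries of a second potato species in the series, S. acaule, were scaled in a table of their own and were not used.

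Cultivated potato is an autotetraploid: each chromosome exists as a set of homologous copies that descend from the same species and can pair with one another in any combination. The copies carry different alleles, which can differ in promoter sequence, in structure or by loss, so that one allele may give most of the transcripts of a gene or all may contribute. Leaves and shoots of cultivated potato are sensitive to frost, and the cultivated species is known for little gain in hardiness in the cold compared with wild relatives. How alleles of one gene differ in their response to a treatment is commonly studied as variation in their own regulatory sequence. The deposited identifiers are not paired with gene names, and 0 of the identifiers of these loci matched the reference table, so the loci are given by identifier and position without a function. No sequence is shown, since no genome of this cultivar was used here.

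Values are deposited signal, which has the form of TPM scaled by a library factor and keeps no sequencing depth. The 6 libraries summed to between 961746 and 1102442, and the balanced loci held from 9.72% to 10.4% of that signal in each library. How reads shared by near-identical copies were divided among them is not known. An even split of shared reads and an even use of the copies cannot be told apart from these values, and neither can fewer cells of a type and less RNA per cell.

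In control the copies of these loci were unequal but close. The control shares chose the loci, so they are given as a description. The leading copy of a locus had a median mean share of 30.3% and the lowest copy one of 20.03%. All 4 mean shares were between 20% and 30% in 704 loci (36.3%) and between 22% and 28% in 240 loci (12.4%). No numbered copy stood out as the leader: copy 1 led in 494 loci, copy 2 in 467, copy 3 in 475 and copy 4 in 505. Near the limits of the rule, the lowest copy inside had a mean control share of 15.004% and the highest inside 39.9%. The nearest loci outside had a copy at 14.98% and at 40.01%.

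The balanced loci spanned the range of expression of the 2828 loci. Their mean 4-copy sum in control ran from 5.38 to 2394 with a median of 23.7, against a median of 25.3 for the 887 loci outside the share range. A copy was represented by a median of 3 assembled transcripts, and 236 loci had exactly 1 transcript on every copy. All 4 copies lay on the same chromosome number in 1842 loci (94.9%), against 88.4% of the loci outside the range. Both conditions that make the copies easiest to compare, 1 chromosome number and 1 gene model on every copy, held for 1409 balanced loci (72.6%) and 46.9% of the others. In 1824 balanced loci (94.0%) every transcript of the locus with signal was placed on a single copy, so that the shares covered the whole locus. A copy was at 0 in 1 case over all balanced loci and libraries, and 18 loci had equal values on 2 copies in at least 1 library. These differences between loci inside and outside the range were not tested.

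The balance of most loci was kept after freezing. All 4 mean shares over the freezing libraries lay within 15% to 40% in 1753 of the 1941 loci (90.3%). Of the 188 loci that left the range, 123 had a copy below 15% only, 30 a copy above 40% only and 35 both. In 120 of these 188 loci the copy passed the limit by no more than 2 points. In 105 a copy, not always the one that left, had started within 2 points of a limit. In the other direction, 114 loci outside the range in control were inside it after freezing. The list chosen by the same range from freezing means held 1867 loci, of which the 1753 shared loci are 93.9%. The freezing means ran from 7.69% to 52.1%.

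**Figure D1:**
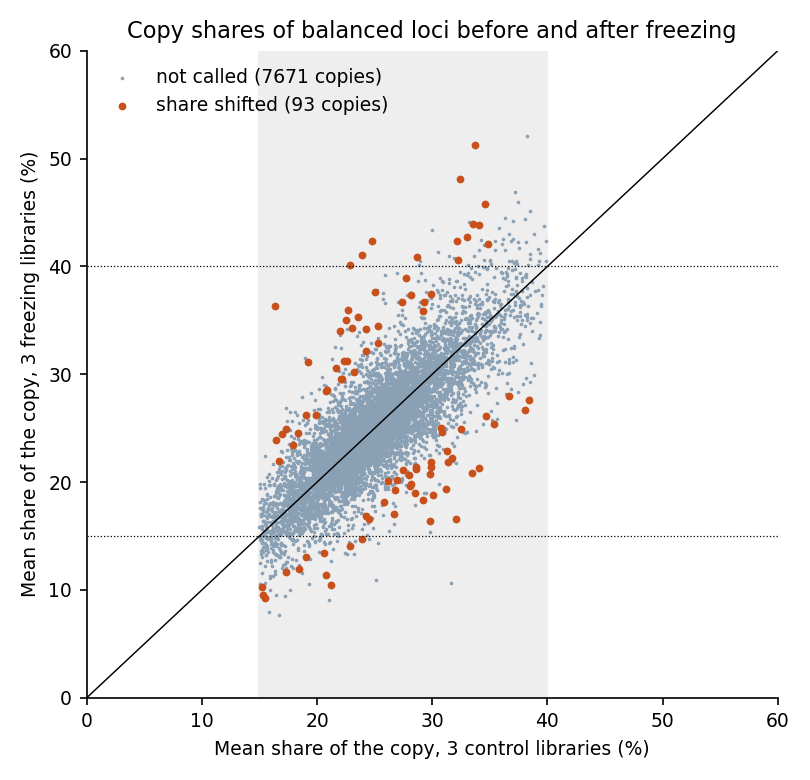
Mean share of each copy of the 1941 balanced loci in control (horizontal, %) and after freezing (vertical, %). Each point is 1 locus copy, the shaded band is the control range of the rule, dotted lines repeat the limits of 15% and 40% for freezing, and orange points are the 93 copies with a called shift. Most copies lie near the diagonal. Of the 188 loci that left the range, 105 had a copy that began within 2 points of a limit, not always the copy that left.

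The plot of control against freezing shares shows how small most movements were. The mean share of a copy moved by a median of 1.67 points, and 95% of copies moved by less than 6.19 points. A movement of over 5 points was seen for 718 copies (9.25%) and of over 10 points for 65 copies (0.837%). The largest rise was 19.96 points, and the copy that lost most fell by 21.0 points. For comparison, the SD of a copy's share between replicates had a median of 1.47 points in control and 1.74 points after freezing. The SE of the difference between the group means, computed from these SDs, had a median of 1.46 points.

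In single libraries, 1810, 1839 and 1838 of the 1941 loci had all shares in the range in control replicates 1, 2 and 3. In freezing replicates 1, 2 and 3 the numbers were 1683, 1674 and 1672. The control libraries chose the loci, which favours them in this count. Loci were therefore chosen again from 2 control libraries at a time and read in the control library left out, with the minimum sum still asked of all 6 libraries. That library had 92.0% to 93.3% of the 1924 to 1930 chosen loci within the range, and the freezing libraries had 86.1% to 87.3% of the same loci. The freezing libraries were below the left-out control library in all 3 choices. No test was made of a score over the chosen loci.

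**Figure D2:**
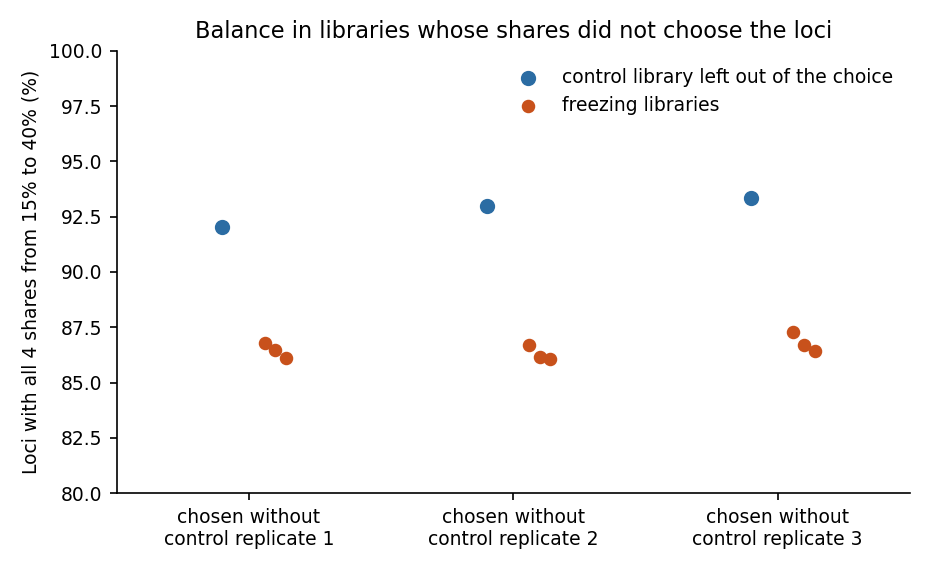
Percentage of loci with all 4 shares from 15% to 40% (vertical axis, from 80% to 100%) in libraries whose shares took no part in choosing them; the minimum sum of 5 was asked of all 6 libraries. For each choice, the blue point is the control library left out and the 3 orange points are the freezing libraries; the control points lie at 92.0% to 93.3% and the freezing points at 86.1% to 87.3%.

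The spread over the copies within a locus was slightly wider after freezing. The median highest share was 30.6% ± 0.126 in control and 31.2% ± 0.0948 after freezing, and the median lowest share 19.7% ± 0.125 and 19.2% ± 0.0495 (SD over 3 libraries each). The effective number of copies, which is 4 for an even split and 1 when a single copy gives all signal, had medians of 3.88, 3.88 and 3.89 in control replicates 1 to 3 and of 3.86 in each freezing library. These measures share the bias of the choice on control means. The loci outside the range had medians of 3.21 to 3.24 in control and 3.21 to 3.22 after freezing. They were set apart by the same control means, for a copy beyond a limit. That choice favours more even shares in other libraries, so these loci cannot show whether the widening was absent there. Summed over all balanced loci, each numbered copy held close to 25% of the signal: copy 1 took 25.0% to 25.4% in control and 25.3% after freezing, copy 3 24.6% to 24.7% in control and 24.9% to 25.0% after freezing.

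The share distance between 2 libraries is the part of the 4-copy sum that would have to move between copies to make their shares equal, in points. Its median over the balanced loci was 3.76 to 3.98 for the 3 pairs of control libraries and 4.39 to 4.89 for the 3 pairs of freezing libraries. The 9 pairs of a control and a freezing library had 4.88 to 5.4004. All between-group pairs exceeded all control pairs, and the lowest of them fell just under the highest freezing pair. Libraries thus differed more across groups than within control, while the freezing libraries also differed more among themselves. The loci outside the range showed the same order at a higher level, with 4.28 to 4.46, 5.03 to 5.61 and 5.89 to 6.65. Between group means, the distance had a median of 3.83 points for balanced loci and 4.76 for the others. It was under 5 points in 1303 balanced loci (67.1%) and over 10 points in 85 (4.38%). In 70 balanced loci (3.61%) every between-group pair was farther apart than every pair within a group, against 4.14% of all 2828 loci.

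**Figure D3:**
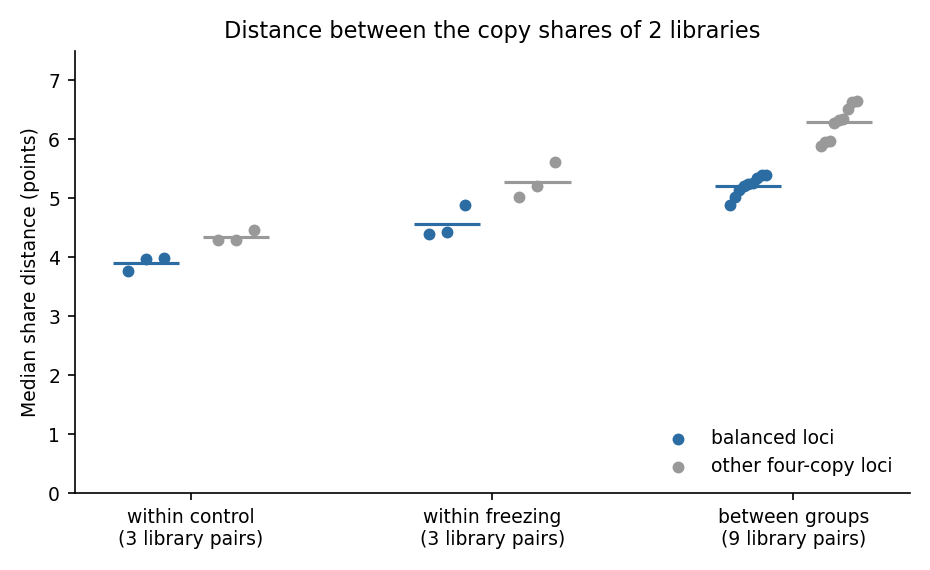
Median share distance between 2 libraries (vertical axis, points) for pairs within control, within freezing and between the groups. Each point is 1 pair of libraries, the horizontal bars are means, blue marks the 1941 balanced loci and grey the 887 other 4-copy loci; for balanced loci the means are 3.91, 4.57 and 5.21 points.

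The distance depended on expression level. Balanced loci were cut into 4 bins of equal size by their mean control sum. In the bin with the lowest sums (5.38 to 14.04), the median distance was 5.61 points within control, 6.27 within freezing and 7.10 between groups. In the bin with the highest sums (43.8 to 2394) it was 2.89, 3.40 and 3.94 points. The order of the 3 kinds of pair was the same in all 4 bins. The share of loci that kept the range rose from 86.4% in the lowest bin to 88.9%, 91.8% and 94.2% in the next ones. The distance within control fell with level alongside the distance between groups, and the part of measurement precision in this was not tested.

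The identity of the leading copy changed more often than the range. The same copy led in the control and the freezing means in 1372 loci (70.7%). Between 2 libraries the leader was the same in 68.8% to 71.1% of loci within control, in 66.8% to 70.2% within freezing and in 61.3% to 65.5% between groups. In 689 loci (35.5%) a single copy led in all 6 libraries, against 64.6% of the loci outside the range. The rule places loci with a copy above its upper limit outside the range, which favours a constant leader there. The gap between the leading and the next copy is not given here, and its part in these changes was not tested.

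Shifts of single copies were tested with limma on the log2 ratio of a copy over the sum of the other copies, fitted over every copy of all 2828 loci. The test called 93 of the 7764 copies of balanced loci at an adjusted p under 0.05, 1.198%, against 1.84% of all 11312 copies tested. Of these, 47 rose in share (against 0.955% of all copies tested) and 46 fell (against 0.884%). They belonged to 81 loci (4.17%), against 6.08% of all 2828 loci with a called copy. The share called among balanced loci was thus no higher than the background, which includes the balanced loci themselves. Among the copies of the loci outside the range 115 were called (3.24%). The difference was not tested. At an unadjusted p under 0.05 there were 1352 copies (17.4%), against 19.6% of all copies tested.

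This count depended on the libraries. Without control replicates 1, 2 and 3, with the loci chosen again, limma called 4, 2 and 6 copies of balanced loci. Over all copies tested it called 18, 18 and 23. Without freezing replicates 1, 2 and 3 it called 78, 50 and 9 copies of balanced loci, and 195, 132 and 38 of all copies tested. A fit with the replicate number as a block called 14, and 49 of all copies tested.

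The called shifts were modest in size. Their median was 8.55 points and the smallest 4.93 points, with rises up to 19.96 points, and the copy that dropped most fell by 15.6 points. Only 6 of the 93 reached 2-fold in the ratio. The shares of control and freezing libraries did not overlap for any of the 93, which also held for 24.4% of all copies of balanced loci and 25.4% of all copies tested. In 50 of the 81 loci all shares stayed within the range, and 31 loci left it. Conversely, 157 of the 188 loci that left the range had no called copy.

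A shift in share must be balanced by the other copies. In 69 of the 81 loci 1 copy was called and in 12 loci 2 copies, which moved in opposite directions in each of the 12. The mean shares of 2 copies rose and 2 fell in 41 loci, 1 rose and 3 fell in 21, and 3 rose and 1 fell in 19. The 47 copies that rose were spread over the control ranks, with 13, 9, 14 and 11 at ranks 1 to 4. The 46 copies that fell were mostly high in control, with 20, 16, 3 and 7 at these ranks. A start near a limit of the rule also makes one direction likelier, and its part in these ranks was not tested. Copies 1 to 4 contributed 23, 20, 27 and 23 of the calls.

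AtlantEVm016325 had the largest called rise in share among balanced loci with a mean sum of at least 10. Its copies lie on chromosome 6, and copy 2 is at 35654847 to 35657100, in gene model Soltu.Atl.06_2G015350 (coordinates as the placement table gives them, with no build named). Copy 2 held 25.7%, 23.5% and 25.1% of the sum in control replicates 1 to 3 and 37.8%, 48.1% and 41.2% in the freezing replicates. Every freezing library was above every control library. The mean share rose from 24.7% ± 1.15 to 42.4% ± 5.28 (n = 3 per group, mean ± SD; limma log2 ratio change 1.13 with SE 0.15, adjusted p = 0.0184). The shift missed the threshold once control replicate 1, 2 or 3 or freezing replicate 3 was left out (limma adjusted p = 0.0712, 0.0862, 0.0784 and 0.0586) and with a block for the replicate number (0.0558).

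The signal of this locus fell, and copy 2 fell least. The 4-copy sum was 23.5, 27.9 and 44.4 in control and 16.1, 8.07 and 10.3 after freezing (limma log2 change -1.40 with SE 0.31, adjusted p = 0.0419). Copy 1 fell from 5.07, 5.96 and 8.49 to 2.45, 1.004 and 1.56 (limma log2 change -1.50 with SE 0.25, adjusted p = 0.0226). Copy 4 fell by 1.49 on the log2 scale (SE 0.27, limma adjusted p = 0.0263). Copy 3 changed by -1.43 (SE 0.34, limma adjusted p = 0.0521) and copy 2 by -0.61 (SE 0.26, limma adjusted p = 0.189), neither of which passed. The rise in share of copy 2 was thus a rise relative to its homologous copies, not a rise in signal.

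AtlantEVm014363, on chromosome 9, had the next largest rise, on copy 1 at 18312507 to 18314291. Each of its copies was represented by 1 transcript. The share of copy 1 was 32.2%, 32.7% and 36.3% in control and 55.1%, 49.7% and 49.1% after freezing. The groups did not overlap, and after freezing copy 1 alone gave about as much signal as the other 3 copies together. The mean share rose from 33.8% ± 2.24 to 51.3% ± 3.33 (n = 3 per group, mean ± SD; limma log2 ratio change 0.97 with SE 0.12, adjusted p = 0.0174). Leaving out control replicate 1 or 2 ended the call (limma adjusted p = 0.0729 and 0.0799), as did a block for the replicate number (0.0526). Copy 3 of this locus went from a share of 19.3% ± 2.99 to 10.6% ± 1.90, which did not pass (limma adjusted p = 0.112). The 4-copy sum, 13.6 ± 5.66 in control and 7.41 ± 2.46 after freezing, was not called either (limma log2 change -0.77 with SE 0.32, adjusted p = 0.183).

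AtlantEVm008402, on chromosome 2, split into a pair of copies that gained share and a pair that lost share. Copy 1, at 15461702 to 15463438, held 31.9%, 35.3% and 29.1% in control and 18.4%, 18.2% and 12.97% after freezing. Copy 3, at 20887377 to 20896117, held 23.2%, 24.0% and 24.5% in control and 39.6%, 39.8% and 43.8% after freezing. Both copies were separated between the groups without overlap. The share of copy 1 fell from 32.1% ± 3.10 to 16.5% ± 3.09 (limma log2 ratio change -1.27 with SE 0.17, adjusted p = 0.0204), the largest fall among the named copies, and that of copy 3 rose from 23.9% ± 0.662 to 41.1% ± 2.34 (n = 3 per group, mean ± SD; limma log2 ratio change 1.05 with SE 0.10, adjusted p = 0.00768). Copy 2 went from 25.1% ± 2.95 to 10.9% ± 5.81 and copy 4 from 18.9% ± 1.98 to 31.5% ± 6.45, without passing (limma adjusted p = 0.0776 and 0.0917). The fall of copy 1 missed the threshold once control replicate 1, 2 or 3 was left out (limma adjusted p = 0.0785, 0.0893 and 0.068). This locus had the largest share distance between group means of all balanced loci, 29.7 points. Copy 3 overlapped 2 gene models, so more than one gene may contribute there; the same holds for the copies with 2 gene models named for other loci.

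In level, the estimated log2 changes were positive for all 4 copies of this locus, and larger for copies 3 and 4. Copy 3 had a signal of 5.36, 4.07 and 3.19 in control and 12.97, 59.4 and 22.0 after freezing (limma log2 change 2.39 with SE 0.50, adjusted p = 0.0382). Copy 4 had 4.90, 3.001 and 2.33 in control and 10.4, 37.2 and 19.0 after freezing (limma log2 change 2.26 with SE 0.44, adjusted p = 0.0319). Copy 1 had 7.37, 5.99 and 3.78 in control and 6.03, 27.2 and 6.51 after freezing. Copy 2 had 5.465, 3.93 and 3.70 in control and 3.34, 25.4 and 2.75 after freezing. Freezing replicate 2 was the highest library for all 4 copies. Copy 1, with a log2 fold change of 0.80 (SE 0.54), and copy 2, with 0.51 (SE 0.71), were not called (limma adjusted p = 0.400 and 0.701). The 4-copy sum was 17.7 ± 5.08 in control and 77.4 ± 62.8 after freezing and did not pass (limma log2 change 1.81 with SE 0.54, adjusted p = 0.0848).

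AtlantEVm009547, on chromosome 7, lost share on copy 3, at 3115970 to 3120060. Copy 3 held 31.4%, 27.8% and 30.2% in control and 15.8%, 18.8% and 14.5% after freezing, again without overlap. The mean share fell from 29.8% ± 1.83 to 16.4% ± 2.23 (n = 3 per group, mean ± SD; limma log2 ratio change -0.96 with SE 0.12, adjusted p = 0.0173). Leaving out control replicate 1, 2 or 3 ended the call (limma adjusted p = 0.0712, 0.055 and 0.0712). The mean shares of the other 3 copies were all higher after freezing, by 3.12 points on copy 1, 7.03 on copy 2 and 3.32 on copy 4, and none of these passed. The 4-copy sum was 10.9 ± 1.29 in control and 12.96 ± 5.87 after freezing and was not called (limma adjusted p = 0.813). The leading copy of control thus became the lowest one while the total did not differ beyond its spread.

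**Figure D4:**
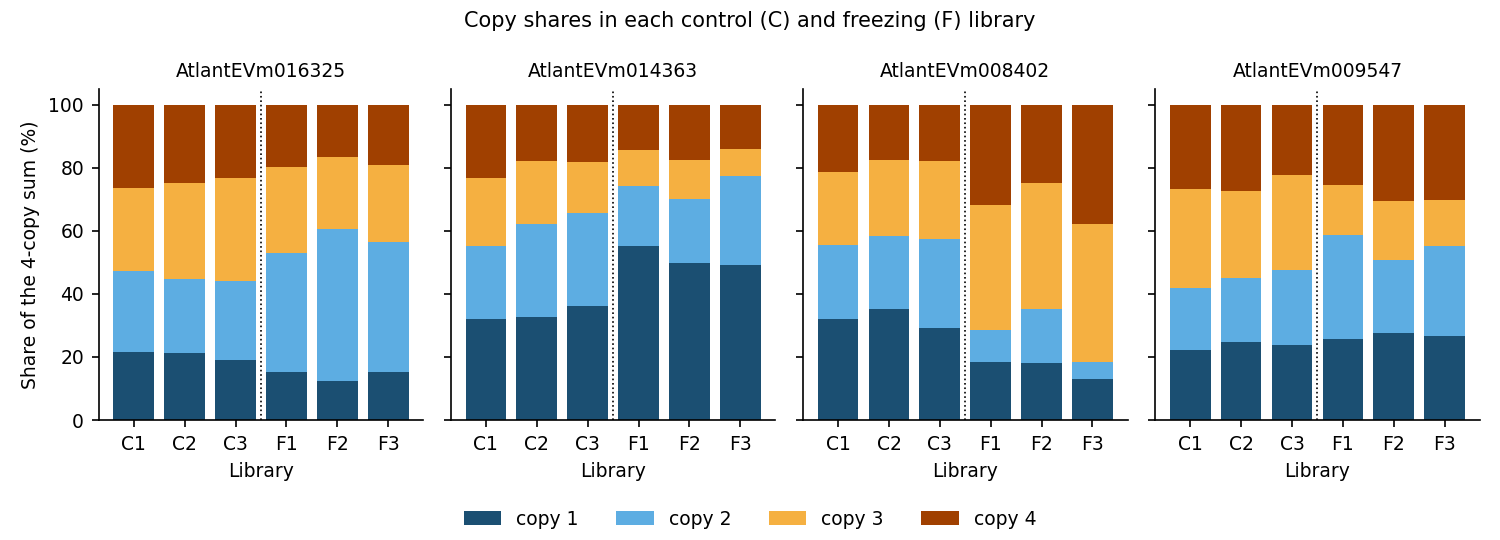
Share of the 4-copy sum held by each copy (vertical axis, %) in control libraries C1 to C3 and freezing libraries F1 to F3, for the 4 named loci. Colours are copies 1 to 4 and the dotted line separates the groups; copy 2 of AtlantEVm016325 and copy 1 of AtlantEVm014363 widen after freezing, while copy 1 of AtlantEVm008402 and copy 3 of AtlantEVm009547 narrow.

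In the loci with a shifted share, each copy's own level was also tested with limma over the 38456 locus copies that reached 1 in 3 or more libraries. At least 1 copy was called in 24 of the 81 loci (29.6%), against 190 of all 1941 balanced loci (9.79%). The 4-copy sum was called in 13 of the 81 loci (16.0%), with 6 higher and 7 lower, against 117 of the 1941 (6.03%). In the other 57 loci no copy level passed, which does not show that levels did not change. Whether these percentages differ was not tested. The median control sum of the 81 loci, 18.8, was below the 23.7 of all balanced loci.

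The total of a locus was tested on the log2(4-copy sum + 1) scale over the 19778 loci whose sum reached 1 in 3 or more libraries. Limma called 117 of the 1941 balanced loci (6.03%), against 9.21% of all loci tested. Of these, 73 were higher after freezing (3.76%, against 3.95% of all loci) and 44 lower (2.27%, against 5.26%). The loci that rose had a median log2 change of 0.87 and the loci that fell one of -0.96, and 28 rose and 20 fell by at least 2-fold. The groups did not overlap in any of the 117, which also held for 32.9% of all balanced loci and 33.5% of all loci tested. The median change of all balanced loci was 0.07, against 0.01 for all loci tested. The rule asked a sum of at least 5 in all 6 libraries, freezing included, which the other loci tested did not need. Loci that fell below 5 after freezing, or rose from below 5, could thus be called only outside the balanced set. This favours lower percentages among balanced loci, and its part was not tested.

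These counts also depended on the libraries. Without control replicates 1, 2 and 3 limma called 10, 9 and 14 balanced loci, and 129, 137 and 336 of all loci tested. Without freezing replicates 1, 2 and 3 it called 95, 208 and 20 balanced loci, and 1612, 2630 and 433 of all loci. A fit with the replicate number as a block called 13, and 246 of all loci tested.

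In all 117 loci with a called total the log2 changes of the 4 copies had one sign, which the choice of loci by the sum of these copies favours. The gap between the most and the least changed copy of a locus had a median of 0.37 on the log2 scale, from 0.06 to 1.195, and was at most 0.5 in 86 loci and over 1 in 4. All 4 copies passed on their own in 22 of the 73 loci that rose and in 11 of the 44 that fell. No copy passed on its own in 1 and 2 of these loci. Over all balanced loci, called or not, the 4 copies had one sign in 1276 (65.7%), against 42.2% of the loci outside the range. The log2 changes of any pair of copies correlated across balanced loci at 0.86 to 0.87 and across the other loci at 0.70 to 0.80 (Pearson's r). Loci are not independent, and copies share libraries and possibly reads. The rule also places loci with a very low copy outside the range. Copies were at 0 there in 301 cases over all loci and libraries, against 1 case inside. Copies near 0 can move little on the log2(signal + 1) scale, which favours lower agreement outside the range. Its part in both comparisons was not tested.

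The range of shares was kept in 98 of the 117 loci (83.8%), against 90.7% of the balanced loci whose total was not called. It was kept in 67 of the 73 that rose and in 31 of the 44 that fell. The share distance between group means had a median of 4.38 points in the former, 5.18 in the latter and 3.78 in loci without a called total. Lower signal after freezing also lowers the precision of a share, and its part in this difference was not tested.

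**Figure D5:**
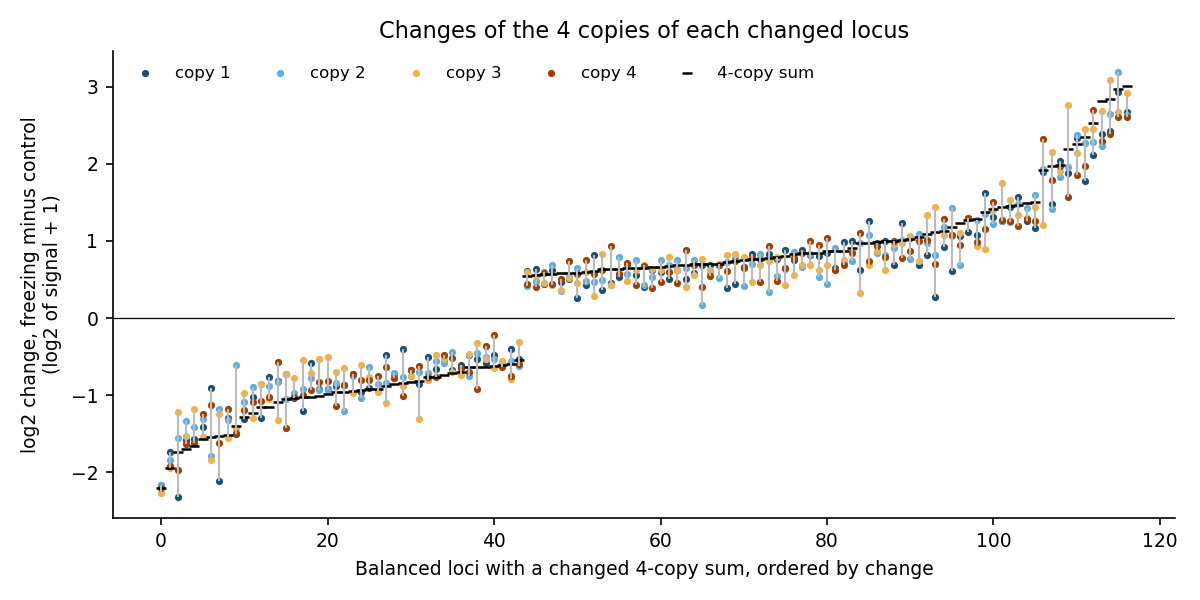
Change of each copy, freezing minus control (vertical axis, log2 of signal + 1), for the 117 balanced loci with a called 4-copy sum, ordered by the change of the sum. Coloured points are copies 1 to 4, grey lines join the copies of a locus and black dashes mark the sum; all 4 copies lie on the same side of 0 in every locus.

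AtlantEVm000454, near the start of chromosome 6 (copy 1 at 303728 to 311656), had the largest rise of the total. Its 4-copy sum was 9.06, 11.6 and 9.46 in control and 63.9, 45.6 and 231 after freezing. Freezing replicate 3 was far above the others, and all freezing libraries were above all control libraries. The sum rose from 10.1 ± 1.38 to 113 ± 102 (n = 3 per group, mean ± SD; limma log2 change 3.01 with SE 0.56, adjusted p = 0.0277). The copies rose by 2.68, 2.64, 2.93 and 2.61 on the log2 scale, each called (limma adjusted p = 0.0283 to 0.0377). Their mean shares were 20.9%, 22.0%, 28.8% and 28.3% in control and 21.2%, 21.3%, 32.1% and 25.4% after freezing. No share was called as shifted. Copy 2 overlapped 2 gene models. The rise of the sum missed the threshold when control replicate 1, 2 or 3 was left out (limma adjusted p = 0.106, 0.0898 and 0.0944) and with the replicate block (0.0612).

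AtlantEVm006721, on chromosome 3 (copy 1 at 26690508 to 26694076), rose from a sum of 30.9, 18.6 and 39.1 to 153, 258 and 303. The groups were well separated, and the mean went from 29.5 ± 10.3 to 238 ± 76.5 (n = 3 per group, mean ± SD; limma log2 change 2.97 with SE 0.35, adjusted p = 0.0107). All 4 copies rose, by 2.94, 3.19, 2.67 and 2.60 on the log2 scale (limma adjusted p = 0.00476 to 0.0206). The share of copy 2 was 18.0% ± 1.31 in control and 24.1% ± 3.34 after freezing, a difference that did not pass (limma adjusted p = 0.183). Copies 1, 2 and 3 overlapped 2 gene models each. Without control replicate 1 the rise of the sum did not pass (limma adjusted p = 0.0586).

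AtlantEVm016529, on chromosome 6 (copy 1 at 14119695 to 14121863), was the balanced locus with the highest control signal and also the one with the largest called fall. Its sum was 2768, 1807 and 2608 in control and 330, 902 and 443 after freezing. The mean fell from 2394 ± 514 to 558 ± 303 (n = 3 per group, mean ± SD; limma log2 change -2.21 with SE 0.41, adjusted p = 0.0272). Copies 1 to 4 changed by -2.17, -2.17, -2.27 and -2.20 on the log2 scale, almost in step, and each was called (limma adjusted p = 0.0226 to 0.0304). The mean shares of copies 1 to 4 were 27.9%, 28.2%, 25.2% and 18.7% in control and 28.5%, 28.9%, 24.0% and 18.6% after freezing, a distance of 1.32 points. A fall of the total by this much therefore left the proportions of the copies nearly as they were. The fall missed the threshold when control replicate 1, 2 or 3 or freezing replicate 3 was left out (limma adjusted p = 0.106, 0.075, 0.0948 and 0.091) and with the replicate block (0.0824).

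AtlantEVm003756, on chromosome 1 (copy 1 at 44094625 to 44122387), had the next largest called fall. Its sum was 119, 114 and 136 in control and 31.9, 29.8 and 31.5 after freezing. It fell from 123 ± 11.8 to 31.0 ± 1.13 (n = 3 per group, mean ± SD; limma log2 change -1.95 with SE 0.14, adjusted p = 0.0033), and all alternatives run kept this call (limma adjusted p = 0.000453 to 0.0328). Copies 1 to 4 changed by -1.74, -1.84, -1.95 and -1.93 on the log2 scale, each called (limma adjusted p = 0.0027 to 0.00368). Copy 1 held 27.6% ± 0.523 in control and 30.4% ± 1.35 after freezing, which did not pass (limma adjusted p = 0.195). Copy 2 overlapped 2 gene models.

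AtlantEVm014198, on chromosome 2 (copy 1 at 38252209 to 38258039), had the next highest control signal and shows balance under wide variation between replicates. Its sum was 2141, 1469 and 1258 in control and 1078, 3027 and 741 after freezing. The groups overlapped, and the sum was not called (limma log2 change -0.24 with SE 0.54, adjusted p = 0.819). Copy 4 led in all 6 libraries, with 32.6%, 30.8% and 31.9% in control and 31.5%, 32.4% and 35.0% after freezing. Its share moved between 30.8% and 35.0% while the sum moved about 4-fold between libraries. Copy 3 moved more, from 22.8% in freezing replicate 2, with the highest sum, to 17.3% in freezing replicate 3, with the lowest.

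Over single copies, limma called 372 of the 7763 copies of balanced loci that were tested (4.79%), against 7.66% of all 38456 locus copies. Of these, 226 were higher, where 3.42% of all locus copies were, and 146 lower, where 4.23% of all were. One copy was below the minimum level and was not tested. The minimum sum of 5 in all 6 libraries also kept loci that were low in either group out of the balanced set. Its part in these percentages was not tested. The calls fell in 190 loci: 94 loci had 1 called copy, 43 had 2, 20 had 3 and 33 had all 4. In 0 loci were copies called in opposite directions. Where a single copy passed, the other 3 missed the threshold, which does not show that they did not change. Without control replicates 1, 2 and 3 the count of 372 became 38, 41 and 52, against 280, 399 and 573 over all locus copies. Leaving out freezing replicates 1, 2 and 3 gave 333, 646 and 73, against 2667, 4351 and 803 over all locus copies. The replicate block left 59 calls in balanced loci and 594 among all locus copies.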

How the data were processed

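The authors deposited 1 signal value per assembled transcript and library. Totals from 961746 to 1102442 and the table's name point to TPM rescaled with TMM library factors, a reading from the values. Per the submitters' processing notes, Trimmomatic 0.39 and DESeq2 were used, with no role stated. Aligner, assembler, abundance program and genome build: not given in the sources used here. Depth is unknown, so precision rests on 3 replicates per group, and 0 value columns were left over. The deposited placement table gave gene model, chromosome and start and end.

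Signal was summed and fitted with limma 3.58.1 (R 4.3.3; pandas 2.3.3) with a variance trend, two-sided, Benjamini-Hochberg at 0.05. Each measure was fitted over its whole table: log2((copy + 0.5)/(other copies + 0.5)), log2(4-copy sum + 1) and log2(copy + 1). Fold changes on log2(signal + 1) understate those of low loci. The fits were tested on simulated data with 200 changed rows. At a log2 change of 1 they recovered 157 rows for the copy share, 35 for the 4-copy sum and 0 for the copy level. At a log2 change of 3 they recovered 199, 188 and 177. On the deposited data the fits called 1822 rows for the sum and 2945 for the copy level, far more than were planted. The adjustment is stricter when few rows change, so the recovered counts do not give the sensitivity of these 2 fits. They can still miss 2-fold changes, at a rate not known. Transcripts also placed on a scaffold or a further copy were left out; ignoring scaffolds gave 1947 loci, with all 1941 among them.

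Replicate numbers were not used as pairs: same-numbered deviations of the log ratio correlated at 0.13, -0.07 and 0.03. Named loci are the 2 per direction with the largest change in share and in sum, among those called, without overlap and with a mean of at least 10 (over all libraries for shares, in the higher group for sums), and the 2 with the highest control sum. The members and lists were chosen with earlier results of these data known.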

Additional observations from a re-analysis of the deposited data

How the results depend on the processing

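The count of 93 shifted copies became 6 with a 2-fold minimum, 21 with a share range of 20% to 30% and 14 with a block for the replicate number; leaving out single libraries gave 2 to 78. The 117 loci with a changed sum became 64 when low loci were kept, 48 with a 2-fold minimum, 35 with the narrower range, 13 with the replicate block and 628 with array weights; leaving out single libraries gave 9 to 208. The 372 copies with a changed level became 217, 171, 116, 59 and 2104 under the same settings, and 38 to 646 without single libraries. Array weights also raised the calls over everything tested, to 6509 loci for the sum and 11451 copies for the level. With low loci kept, the calls over everything tested were 1362 for the sum and 2271 for the level. The count over everything tested at the 2-fold minimum is not given here. The narrower range left 704 loci, of which 429 were within it after freezing. The median share distance of 3.83 points became 3.48 with a 4-copy sum of at least 10 and 3.36 with the narrower range, and 3.91 to 4.23 without single libraries. The narrower range, the fold minimum and the higher sum keep fewer loci by construction; for the other settings the cause was not tested. Of the shifted copies, 13 were shared with the replicate block and, among the same 1941 loci, 2, 2 and 5 remained without control replicates 1, 2 and 3.

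Other pseudocounts, the arcsine scale and centring of the libraries kept the counts of calls within 1.5 times. Without single libraries, 1924 to 1941 loci were chosen and 1724 to 1747 of them were within the range after freezing. The 1409 loci with 1 chromosome number and 1 gene model per copy, a set chosen after seeing the data, gave 72, 95 and 299 calls. The same fits called 208, 1822 and 2945 over everything tested. The direction of the 8 loci named for a change held under all alternatives run. Whether the numbers mark pairs is not known. Only control replicate 1 correlated best with the freezing library of its own number, which cannot decide it with so few libraries. Unknown depth limits the shares of loci with low sums most.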

Other observations

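Balanced loci were found on all 12 chromosomes. Among loci with all copies on one chromosome number, they made up 64.0% to 78.8% of the 4-copy loci of each chromosome, with the highest share on chromosome 7 (164 of 208), except on chromosome 10, where 14 of only 28 loci were balanced. Chromosome 2 held the most 4-copy loci, 531, of which 385 were balanced. The range was kept after freezing in 85.0% of the balanced loci of chromosome 12 and in 88.6% to 93.6% of those of the other chromosomes. The median share distance between group means ran from 3.40 points on chromosome 9 to 4.25 points on chromosome 6. These differences between chromosomes were not tested.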
